A study of Mus musculus with 7 samples.

Results

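The collagen genes of thymic epithelial cells (TECs) were described here as every gene whose symbol is Col, a number, the letter a and a number. 44 of the 20839 genes listed in any of 7 single-cell libraries from mouse thymus had such a symbol, and 32 of the 44 were listed in all 7 libraries. The other 12 were listed in some libraries only, so that a library held between 32 and 43 of them. Together they gave 44876 UMIs (unique molecular identifiers, each counting 1 captured RNA molecule) in 8220 cells with no UMI of Ptprc, the gene of CD45. Single genes ranged from 5 UMIs (Col28a1) to 7433 UMIs (Col6a1), 35 of them held at least 100 UMIs, and the 6 with the most UMIs held 63.1% of all collagen UMIs.

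Each library was made from EpCAM+ CD45- cells of 3 pooled thymi of female mice, with 1 library for each group. The Aire trace library came from Aire-CreERT2-R26-CAG-Stopfl-zsGreen mice on C57BL/6, aged 6 weeks, that received tamoxifen (2 mg on alternate days over 10 days), in which the Cre recombinase driven by Aire switches on the green reporter. The other libraries came from C57BL/6 mice given 3 treatments of 100 µg of antibody within 1 week. Isotype antibody was followed to week 2 (aged 4 weeks) and week 10 (aged 12 weeks), and antibody against RANKL, the ligand whose receptor drives medullary TEC maturation, to weeks 2, 4, 6 and 10 (aged 4, 6, 8 and 12 weeks).

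Collagens are secreted chains that wind around each other into helical proteins of the extracellular matrix. Col4 chains form the network of basement membranes, Col6 chains form beaded filaments next to it, and the fibrillar chains of the Col1, Col2, Col3, Col5, Col11, Col24 and Col27 families form the fibres of connective tissue, cartilage and bone. In the thymus, fibroblasts of the capsule and septa are the textbook source of fibrillar collagen, basement membranes underlie the outer epithelium and the vessels, and medullary TECs that express Aire transcribe genes of many other tissues, each in few cells.

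Cells were compared by fixed gates on the deposited values. Ccl21a-high cells (Ccl21a above 4, a chemokine of medullary TECs), Aire-high cells (Aire above 1.5), cTEC-gate cells (at least 2 of the 3 cortical TEC genes Psmb11, Ackr4 and Prss16 above 0) and tuft-gate cells (Trpm5, a channel of tuft cells, above 0) numbered 2873, 1582, 463 and 315. Another 765 cells passed more than 1 gate and 2222 passed none. A library held 140 to 813 Ccl21a-high cells, 18 to 515 Aire-high cells, 43 to 108 cTEC-gate cells and 16 to 81 tuft-gate cells, the smallest Aire-high group being that of anti-RANKL week 4 and the smallest tuft-gate group that of anti-RANKL week 6. The libraries held 730 to 1475 cells and 3857876 to 22197691 UMIs, with a median of 4299.5 to 16809 UMIs per cell, and 50 cell barcodes occurred in more than 1 library. Levels are given as CPM, that is, scaled to 1000000 UMIs in the summed cells of a library and gate. Epcam, the epithelial gene of the sort, had a median of 753.7 CPM in Ccl21a-high cells, 548.4 in Aire-high cells, 486.9 in cTEC-gate cells and 775.2 in tuft-gate cells.

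Genes of other cell types were also present. The 9 listed fibroblast and mesenchyme genes summed to 196.5 to 602.7 CPM in Ccl21a-high cells, 124.5 to 335.9 in Aire-high cells, 597 to 1648 in cTEC-gate cells and 27.9 to 352.9 in tuft-gate cells. Dcn made up most of this in all but the tuft-gate cells, whereas Pdgfra, a defining gene of fibroblasts, had a median of 0 in all gates but the Ccl21a-high one, where it was 0.511 CPM. The 5 pericyte and smooth muscle genes summed to 871 to 1566 CPM in Ccl21a-high cells against 273.2 to 399.5 in Aire-high cells, 75.4 to 453.2 in cTEC-gate cells and 109.4 to 352.9 in tuft-gate cells. The 5 endothelial genes stayed at or below 9.01, 19.0, 28.9 and 74.9 CPM in these 4 gates. The counts of collagen genes between gates were therefore recomputed without the cells that held a UMI of another lineage (Pdgfra, Pdgfrb, Dcn, Lum, Pecam1, Cdh5 or Rgs5), which made up 63.1% to 82.3% of a library, and without the cells that held 2 or more mesenchyme markers. The first of these recounts also changed which libraries were compared, since sums of at least 10 cells remained in 3 libraries for cTEC-gate cells (46 cells, 14 to 17 a library, of 463), 5 for Aire-high, 6 for tuft-gate and 7 for Ccl21a-high cells. Its differences are therefore given beside those of all cells in the sums it keeps, a fit added after the data were seen. Beyond these recounts, the part of such cells in the collagen values was not tested.

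Collagens were most abundant in Ccl21a-high cells. All 44 genes summed to 714.5, 778.7 and 1069 CPM there (lowest, median and highest of the 7 libraries), to 385.4, 530.6 and 586.9 in cTEC-gate cells, to 345, 381.1 and 481.9 in Aire-high cells and to 180.1, 262.4 and 380.1 in tuft-gate cells. The Ccl21a-high cells of every library were thus above the cells of any other gate in any library. With each cell thinned to 2000 UMIs, a cell held on average 1.34, 0.680, 0.982 and 0.442 collagen genes in the Ccl21a-high, Aire-high, cTEC-gate and tuft-gate cells (median of the libraries). Levels rest on 3′ tags that are not divided by gene length, so the tests compare cells for 1 gene at a time, and ratios between genes given below are ratios of UMIs, not of molecules per length.

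The high total of Ccl21a-high cells was carried by 6 genes. Col4a1, Col4a2, Col6a1, Col6a2, Col12a1 and Col18a1 together had medians of 656.7 CPM in Ccl21a-high cells, 361 in cTEC-gate cells, 105.3 in Aire-high cells and 78.4 in tuft-gate cells. The other 38 genes were arranged differently, with medians of 137.2, 153.6, 272.7 and 159.4 CPM in the same order of gates. Their range in Aire-high cells, 164.4 to 295.5, overlapped that in Ccl21a-high cells, 111.9 to 215.8. The 6 genes were picked for their abundance, so their sums are a description.

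**Figure D1:**
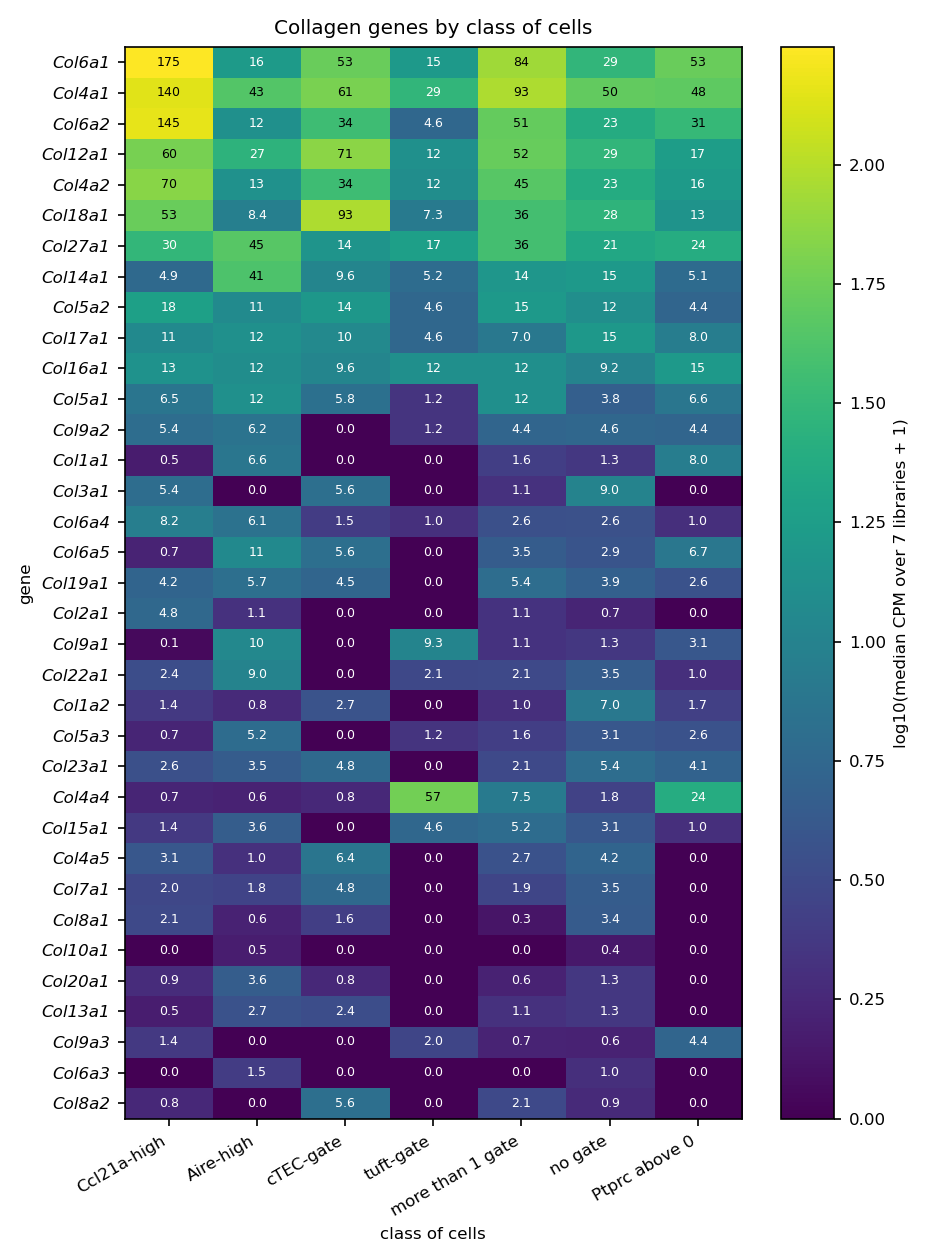
Median level over the libraries (colour, log10 of CPM + 1) of the 35 collagen genes with at least 100 UMIs, by gate and class of cells (columns). Among the 4 gates, Col6a1, Col6a2 and Col4a1 are highest in Ccl21a-high cells, Col18a1 and Col12a1 in cTEC-gate cells, Col14a1 and Col27a1 in Aire-high cells and Col4a4 in tuft-gate cells.

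Some of these genes lie next to each other, and the sequence between their starts, or before them, is shown for Col4a4, Col6a1 and Col6a2, which were called between gates below and each lie near the gene of a partner chain. In GRCm38.p6, Col4a4 (chr1:82448423-82586849, minus strand) and Col4a3 (chr1:82586921-82722059, plus strand) are divergent neighbours with 71 bases between their starts. Col6a1 (chr10:76708792-76726168, minus strand) and Col6a2 (chr10:76595762-76623630, minus strand) lie on 1 strand with 85161 bases between them. Positions are those of GENCODE vM21, none of the windows overlaps an annotated exon, and each is written on the strand named. Capitals mark the only match to GGGCGG on either strand, and neither TATAAA nor CCAAT was found on either strand in any of the 3 windows.

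Col4a4 to Col4a3 (chr1:82586850-82586920, plus strand): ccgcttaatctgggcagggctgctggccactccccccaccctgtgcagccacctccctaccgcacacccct
Col6a1, before the start (chr10:76726169-76726294, minus strand): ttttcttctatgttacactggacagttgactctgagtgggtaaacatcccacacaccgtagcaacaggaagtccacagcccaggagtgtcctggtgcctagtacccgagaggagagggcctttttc
Col6a2, before the start (chr10:76623631-76623880, minus strand): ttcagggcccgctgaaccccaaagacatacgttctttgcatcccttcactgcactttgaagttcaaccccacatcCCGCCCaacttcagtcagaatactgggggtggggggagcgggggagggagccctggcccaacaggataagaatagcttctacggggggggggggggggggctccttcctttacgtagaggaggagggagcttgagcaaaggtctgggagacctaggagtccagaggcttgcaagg

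The windows had a GC content of 69.0%, 51.6% and 59.2%. Of 32851 gene starts, windows of the same lengths held GGGCGG in 20.7%, 27.0% and 32.7% of cases, TATAAA in 4.41%, 6.62% and 12.4%, and CCAAT in 13.3%, 22.0% and 33.9%, with median GC contents of 54.9%, 54.0% and 52.4%. These are matches of letters only.

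Differences between gates were tested with limma on log2 of CPM plus 10, with UMIs summed per library and gate, the library as a block, and Benjamini-Hochberg adjustment over 15624 genes. A gene was called when its adjusted p was under 0.05 and its difference at least 2-fold on this scale, which understates the change of genes at low levels. 36 collagen genes held enough UMIs to be tested, and 8 did not (Col4a3, Col4a6, Col6a3, Col6a6, Col11a1, Col24a1, Col25a1 and Col28a1, with 0 to 48 UMIs in the sums compared). Of the 36, 12 held under 50 UMIs outside the gate where they had most, so that their being tested rested on that gate. The libraries differ in treatment, so the p-values measure the spread of the gate difference over libraries of different treatment, and the comparisons share gates.

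In Ccl21a-high against Aire-high cells, 5 collagen genes were higher and 2 lower, when 4.48% of all genes were called higher and 5.97% lower. A further 6 passed the adjusted p without reaching 2-fold, 2 of them higher and 4 lower, and 23 did not pass. The median difference of the 36 genes was -0.03, against -0.00 for all genes tested. The 5 higher genes were the chains of 2 collagen types of the pericellular matrix, Col6a1, Col6a2, Col4a1 and Col4a2, together with Col18a1.

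Col6a1, 1 of the chains that every Col6 filament needs, had 155.6, 175.4 and 330 CPM in Ccl21a-high cells (lowest, median, highest) and 7.15, 15.9 and 34.3 in Aire-high cells. It was higher in the Ccl21a-high cells of 7 of 7 libraries, without overlap, and was highest in the Aire trace (330) and anti-RANKL week 10 (309.8) libraries while the other libraries lay between 155.6 and 200.4. The difference was 3.05 ± 0.29 (log2, SE), which is 8.27-fold (limma, adjusted p = 6.41e-09). Without the cells that held a UMI of another lineage it was 3.42, and 3.25 with all cells in the sums that this keeps.

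Col6a2, its partner chain, had 127.6, 144.9 and 260.2 CPM in Ccl21a-high cells and 4.38, 12.4 and 31.7 in Aire-high cells. The groups did not overlap, and the difference was 3.04 ± 0.31 (log2, SE; adjusted p = 2.36e-08). In these cells Col6a1 gave 1.07, 1.27 and 1.35 UMIs per UMI of Col6a2 (lowest, median, highest library). Of 2771 Ccl21a-high cells thinned to 2000 UMIs, 948 held Col6a1, 765 held Col6a2 and 356 held both.

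A Col6 filament is known to hold a further chain beside Col6a1 and Col6a2, usually that of Col6a3. Col6a3 had few UMIs, with 110 in all cells and at most 0.00228 UMIs per UMI of Col6a1 in the Ccl21a-high cells of any library. Col6a4 can take its place, and had 6.37, 8.15 and 15.5 CPM in Ccl21a-high cells, above the 0, 1.49 and 2.96 of cTEC-gate cells without overlap. Aire-high cells, with little Col6a1, held 0.379 to 0.776 UMIs of Col6a4 and 0.103 to 0.209 UMIs of Col6a3 per UMI of Col6a1 in the 4 libraries with at least 20 UMIs of Col6a1. Col6a5, a further chain of this kind, was at 3.61, 10.7 and 16.0 CPM in Aire-high cells and 0, 0.679 and 2.12 in Ccl21a-high cells, which did not overlap, with a difference of -0.85 (log2, adjusted p = 3.03e-04).

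Col4a1 and Col4a2 encode the chains found in basement membranes throughout the body. Col4a1 had 121, 140 and 149.7 CPM in Ccl21a-high cells and 23.4, 42.8 and 63.4 in Aire-high cells, a narrow range in the first and no overlap with the second. Its difference was 1.62 ± 0.22 (log2, SE; adjusted p = 2.81e-06). Col4a2 had 47.4, 69.8 and 86.8 CPM in Ccl21a-high cells and 8.60, 12.7 and 22.4 in Aire-high cells, again without overlap, with a difference of 1.69 ± 0.20 (adjusted p = 2.12e-07).

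Col4a1 gave 1.47, 2.08 and 2.78 UMIs per UMI of Col4a2 in Ccl21a-high cells. In the thinned Ccl21a-high cells 668 held Col4a1, 369 held Col4a2 and 121 held both, while 241 held Col4a1 and Col6a1. The starts of Col4a1 and Col4a2 overlap by 22 bases on opposite strands.

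Col18a1, a collagen of basement membranes that carries heparan sulfate, had 35.9, 53.3 and 66.3 CPM in Ccl21a-high cells and 5.98, 8.39 and 32.5 in Aire-high cells. The highest Aire-high value, that of anti-RANKL week 6, lay below the lowest Ccl21a-high value. The difference was 3.00-fold (adjusted p = 1.95e-07).

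Col14a1 and Col9a1 were lower in Ccl21a-high than in Aire-high cells. Col14a1, which binds to the surface of fibres, had 0.341, 4.91 and 14.9 CPM in Ccl21a-high cells and 6.34, 41.0 and 59.8 in Aire-high cells. It was lower in 7 of 7 libraries, and the difference was 2.83-fold (log2 SE 0.23; adjusted p = 8.96e-06), although the ranges overlapped through the 6.34 of anti-RANKL week 4, which rested on 1 UMI in 18 cells. Col9a1, a collagen of cartilage fibres, had 0, 0.139 and 0.461 CPM in Ccl21a-high cells and 0, 10.3 and 25.4 in Aire-high cells, where anti-RANKL week 6 was at 0. Its difference was -1.03 ± 0.19 (log2, SE; adjusted p = 1.21e-04, lower in 6 of 7 libraries), a size that depends on the 10 added to each level since Ccl21a-high cells were near 0. Col9a1 reached the 50 UMIs needed for a test through Aire-high cells, which held 249 of its UMIs against 4 in Ccl21a-high, 1 in cTEC-gate and 39 in tuft-gate cells, so its being tested rested on the gate where it is high. It was just under 2-fold without anti-RANKL week 2 (-0.99), week 4 (-0.91) or week 10 (-0.97). The call was also lost, with the direction kept, under 8 other settings, among them the Aire trace and isotype libraries alone (-0.92), at least 30 cells per sum (-0.91), Ccl21a above 5 with Aire above 2 (-0.81), Ccl21a above 3 with Aire above 1 (-0.85) and without cells with 2 or more mesenchyme markers (-0.86).

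The collagen genes that passed the adjusted p but not 2-fold were Col12a1 (0.75, adjusted p = 0.0361) and Col3a1 (0.58, adjusted p = 0.0400) on the higher side and Col6a5, Col1a1 (-0.70, adjusted p = 0.00202), Col22a1 (-0.51) and Col20a1 (-0.37) on the lower side. Col3a1 is the fibrillar chain of soft connective tissue and Col1a1 that of bone, skin and tendon. Col3a1 had 0.851, 5.40 and 36.1 CPM in Ccl21a-high cells against 0, 0 and 10.7 in Aire-high cells. Col1a1 had 0, 0.491 and 3.54 in Ccl21a-high cells against 0, 6.58 and 25.1 in Aire-high cells. Col1a1 and Col20a1 were tested through Aire-high cells, which held 298 and 95 of their UMIs against 34 and 24 in the other 3 gates together.

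**Figure D2:**
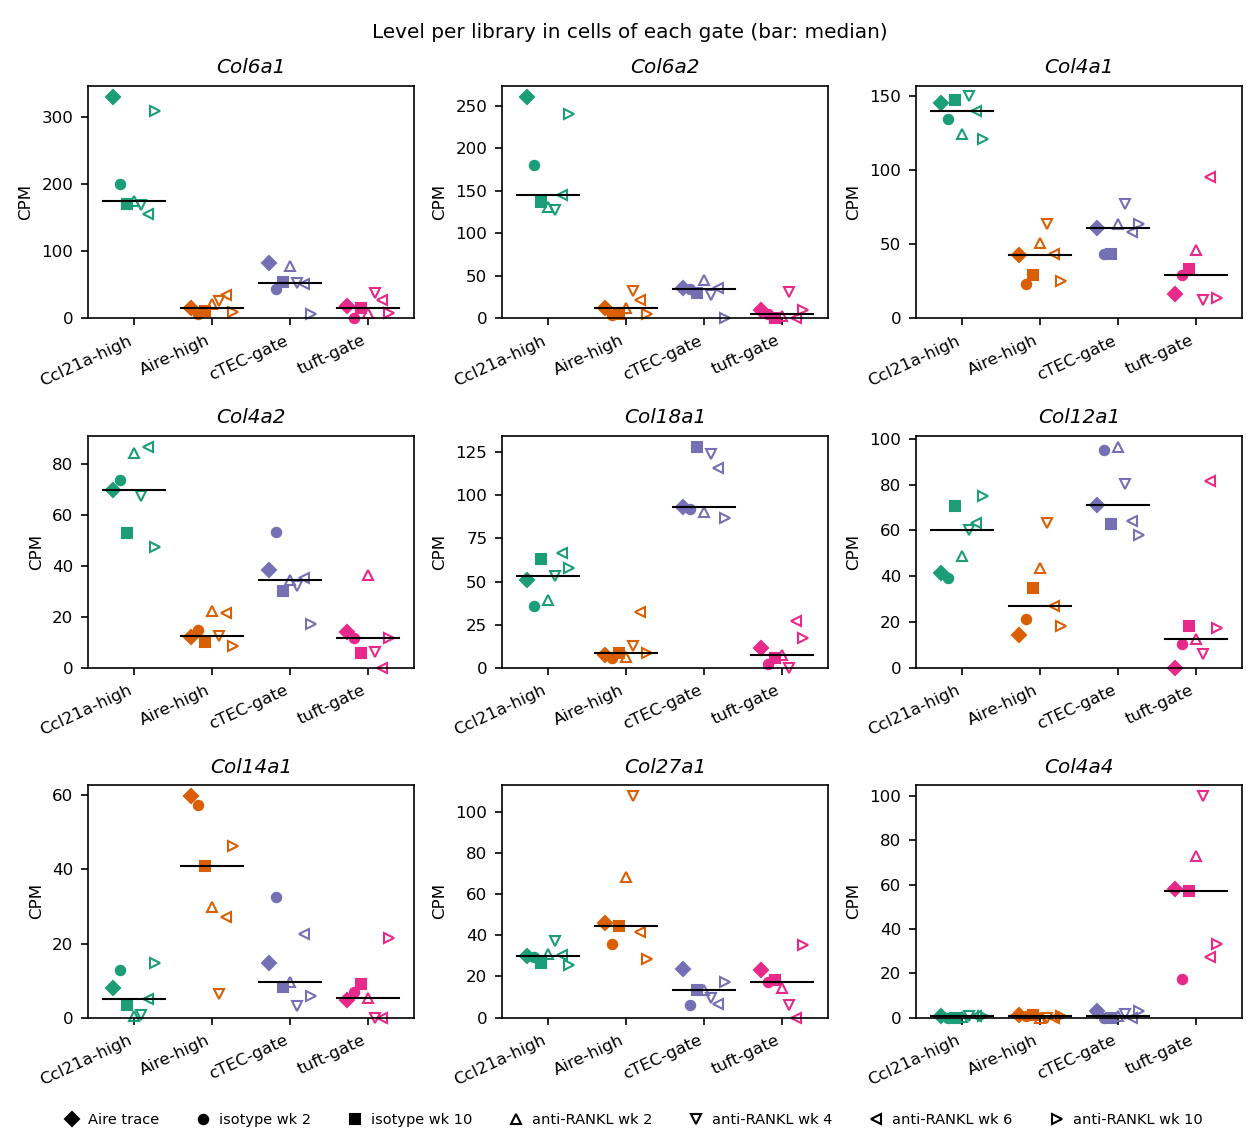
Level (CPM) of 9 collagen genes in each of the 7 libraries by gate, with filled points for the Aire trace and isotype libraries, open points for the anti-RANKL libraries and a bar at the median. Col6a1 lies between 155.6 and 330 in Ccl21a-high cells and at or below 82.9 in every other gate, and Col4a4 lies between 17.4 and 99.9 in tuft-gate cells and at or below 2.96 in the others.

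In cTEC-gate against Ccl21a-high cells, 3 collagen genes were lower and 0 higher, when 1.38% of all genes were called lower and 1.24% higher. By limma's p before adjustment, 6 were higher and 7 lower at 0.05, when 12.9% of all genes were higher and 7.54% lower at that p. The 3 lower genes were Col6a2 (-2.31 ± 0.31, log2, SE; adjusted p = 8.57e-06), Col6a1 (-1.96 ± 0.29, adjusted p = 2.95e-05) and Col4a1 (-1.12 ± 0.22, adjusted p = 0.00113). None of the 3 overlapped with the Ccl21a-high range, as cTEC-gate cells held 0, 34.2 and 45.5 CPM of Col6a2, 5.80, 53.1 and 82.9 of Col6a1, and 43.1, 60.7 and 77.2 of Col4a1. The lowest Col6a1 value was that of anti-RANKL week 10. Without the cells that held a UMI of another lineage, Col4a1 did not pass (-1.17, adjusted p = 0.0656), with cTEC-gate cells in 3 libraries instead of 7, and with all cells in the sums kept it was just under 2-fold (-0.945, adjusted p = 0.0239). It did not pass in the anti-RANKL libraries alone (-0.93, adjusted p = 0.204) or in cells thinned to 2000 UMIs (-1.11, adjusted p = 0.0696).

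Among the genes that passed the adjusted p without reaching 2-fold, Col18a1 (0.88, adjusted p = 0.00182), Col8a2 (0.73, adjusted p = 0.00147) and Col4a5 (0.43, adjusted p = 0.0222) were higher in cTEC-gate cells. Col18a1 had 86.9, 93.3 and 128.2 CPM in cTEC-gate cells, above the Ccl21a-high range without overlap. Col8a2, a short-chain collagen known from the basement membrane of the cornea, had 1.49, 5.58 and 23.2 CPM in cTEC-gate cells and 0.491, 0.819 and 1.38 in Ccl21a-high cells. It was at 0 in the tuft-gate cells of all libraries, and it was tested through cTEC-gate cells, which held 36 of its UMIs against 21 in the other 3 gates together. Col27a1 (-0.84), Col4a2 (-0.84) and Col6a4 (-0.71) were lower in cTEC-gate cells by the adjusted p alone.

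In cTEC-gate against Aire-high cells, 3 collagen genes were higher and 2 lower, when 5.23% of all genes were called higher and 5.15% lower. Col18a1 showed the clearest difference, with no overlap between 86.9 to 128.2 CPM in cTEC-gate cells and 5.98 to 32.5 in Aire-high cells, 5.52-fold (adjusted p = 1.86e-10). Col27a1, a fibrillar chain of cartilage, was lower by 1.42 ± 0.24 on the log2 scale (adjusted p = 4.39e-05), at 5.94, 13.6 and 23.7 CPM against 28.5, 44.7 and 107.8 without overlap. Its highest Aire-high value was again in the 18 cells of anti-RANKL week 4. The Col27a1 call was lost with cells in more than 1 gate kept, with Ccl21a above 5 and Aire above 2, and with a pseudocount of 50. Without the cells that held a UMI of another lineage the Col27a1 difference was -0.63 (adjusted p = 0.314), where only 2 libraries held both gates, and with all cells in the sums kept it was -1.05 (adjusted p = 0.00715).

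The other 3 calls of this comparison were weaker. Col12a1, a collagen that sits on fibres, was at 58.0, 71.1 and 96.6 CPM in cTEC-gate cells and 14.3, 27.1 and 63.4 in Aire-high cells, a difference of 1.10 ± 0.28 (log2, SE; adjusted p = 0.00253) that was just under 2-fold without the Aire trace (0.9982) or isotype week 2 (0.9975) library. Col6a1 differed by 1.09 ± 0.29 (adjusted p = 0.00404, higher in 6 of 7 libraries) and by 0.97 without the Aire trace library. Without the cells that held a UMI of another lineage these differences were 0.17 (adjusted p = 0.820) and 0.00 (adjusted p = 0.997), again with both gates in 2 libraries, isotype week 10 and anti-RANKL week 10. With all cells in the sums kept they were 0.92 (adjusted p = 0.00956) and 0.66 (adjusted p = 0.237), so that neither was called there before any cell was left out. Within the anti-RANKL libraries they were 0.89 (adjusted p = 0.130) and 0.63 (adjusted p = 0.298). Col9a1, at 0, 0 and 0.798 CPM in cTEC-gate cells, differed by -1.04 ± 0.19 (adjusted p = 1.10e-04), and by -0.91 and -0.98 without anti-RANKL week 4 or week 10. It was also under 2-fold with cells in more than 1 gate kept (-0.73), at least 30 cells per sum (-0.92), Ccl21a above 5 with Aire above 2 (-0.52), Ccl21a above 3 with Aire above 1 (-0.88), no Ptprc filter (-0.98), the Aire trace and isotype libraries alone (-0.95), without cells with 2 or more mesenchyme markers (-0.86) and with a pseudocount of 50 (-0.30). As above, Col9a1 was tested through Aire-high cells.

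In tuft-gate cells against the mean of the other 3 gates, 1 collagen gene was higher and 6 were lower, when 4.15% of all genes were called higher and 2.05% lower. The median difference of the 36 genes was -0.27, against -0.03 for all genes. The gene that was higher, Col4a4, encodes a basement membrane chain known from the kidney glomerulus, the cochlea and the eye. It had 17.4, 57.3 and 99.9 CPM in tuft-gate cells, with 99.9 at anti-RANKL week 4 and 17.4 at isotype week 2, and 27.1 from 2 UMIs at anti-RANKL week 6. In the other gates no library was above 2.96, so the groups did not overlap. The difference was 2.40 ± 0.15 (log2, SE; adjusted p = 2.24e-12, higher in 7 of 7 libraries), and its size depends on the 10 added to each level. Col4a4 reached the 50 UMIs needed for a test through the tuft-gate cells, with 164 UMIs there against 19 in Aire-high, 12 in Ccl21a-high and 5 in cTEC-gate cells.

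Of the 296 UMIs of Col4a4, 55.4% were in tuft-gate cells and 20.3% in cells that passed more than 1 gate. Col4a4 and Col4a3 chains are known to assemble together, and their genes share the 71-base interval shown above. Col4a3 had 0 UMIs in the tuft-gate cells, where Col4a4 had 164, and 22 UMIs in all cells. Cells with Ptprc above 0, which also held the tuft gene Trpm5 at a median of 142.7 CPM, had 0, 23.8 and 78.9 CPM of Col4a4.

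The 6 collagen genes that were lower in tuft-gate cells were those of the abundant group above. Col6a2 differed by -1.67 (adjusted p = 1.03e-05), Col6a1 by -1.53 (adjusted p = 1.22e-05), Col18a1 by -1.49 (adjusted p = 1.53e-08), Col12a1 by -1.29 (adjusted p = 6.15e-05), Col4a2 by -1.10 (adjusted p = 5.98e-06) and Col4a1 by -1.001 (adjusted p = 1.13e-04). Their ranges in tuft-gate cells started at 0 for all but Col4a1, which had 12.5, 29.1 and 95.02 CPM. The highest tuft-gate values of Col4a1 (95.02) and Col12a1 (81.4) were both in the 16 cells of anti-RANKL week 6, and both genes were lower in 6 of 7 libraries. Col4a1 was under 2-fold without the Aire trace (-0.89), anti-RANKL week 4 (-0.81) or week 10 (-0.91) library, and also with Ccl21a above 5 and Aire above 2 (-0.70), with all 3 cTEC markers (-0.79) and in the anti-RANKL libraries alone (-0.99). Col4a2 was under 2-fold without anti-RANKL week 6 (-0.89), without the cells that held a UMI of another lineage (-0.83, adjusted p = 0.0237), with all cells in the sums that this keeps (-0.88), in thinned cells (-0.91), with at least 30 cells per sum (-0.88), with Ccl21a above 5 and Aire above 2 (-0.83) and with all 3 cTEC markers (-0.90). When cells in more than 1 gate were kept, none of the 6 reached 2-fold, with differences of -0.75 (Col12a1) to -0.42 (Col4a1).

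Col14a1 lay just under the limit in cTEC-gate against Aire-high cells, 1.999-fold lower (adjusted p = 0.00104). The other genes that passed only the adjusted p in that comparison were Col4a2, Col4a5 (the X-linked basement membrane chain, 0.68) and Col8a2 (0.84) on the higher side, and Col1a1, Col5a1, Col6a4, Col20a1 and Col22a1 on the lower side, of which Col8a2, Col1a1 and Col20a1 were tested only through the gate where they are high, as above. In tuft-gate cells Col9a1 (0.54) and Col15a1 (0.39) were higher by the adjusted p alone. Lower were Col5a2 (-0.84), Col14a1, Col27a1, Col17a1 (-0.63), Col5a1, Col19a1, Col7a1, Col8a2 and Col4a5.

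Col5a2 and Col5a1, which set the width of fibres, and Col17a1, a membrane collagen of hemidesmosomes, were found in every gate. Col5a2 had 9.82, 18.0 and 36.1 CPM in Ccl21a-high cells and 1.24, 11.0 and 58.7 in Aire-high cells, with wide overlap. Col17a1 had 4.77, 10.6 and 17.7 CPM in Ccl21a-high cells, 9.87, 12.4 and 31.7 in Aire-high cells and 0, 4.65 and 9.05 in tuft-gate cells, the last 2 without overlap. Col16a1 had medians of 12.9, 11.7, 9.57 and 12.1 CPM in the Ccl21a-high, Aire-high, cTEC-gate and tuft-gate cells, and its ranges overlapped throughout. It was among the genes with no adjusted p under 0.05 in any comparison, with Col1a2, Col2a1, Col5a3, Col8a1, Col9a2, Col9a3, Col10a1, Col11a2, Col13a1, Col23a1 and Col26a1.

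A 2-sided exact permutation test on the 7 paired differences (flipping their signs) gave 64 of 140 gate comparisons of collagen genes with at least 100 UMIs at p under 0.05, when 35.0% of the comparisons of all genes tested with limma did so. Of the 64, 42 had the smallest p that 7 pairs allow, 0.0156. Adjusted over the 140, that p is 0.0521, so no comparison passed. Of the 22 differences called by limma, 17 went in 1 direction in every library, which is a description, since they were called on the same libraries.

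Genes of the collagen machinery were described from 4 lists. Of 26 tested enzymes and chaperones of collagen synthesis (29 listed), 4 were higher and 0 lower in Ccl21a-high than in Aire-high cells, and of 6 tested collagen receptors (12 listed) 2 were higher and 0 lower. Of 19 tested basement membrane partners (20 listed) 7 were higher and 0 lower, and of 9 tested genes of collagen turnover (11 listed) 4 were higher and 0 lower. Over all genes, 4.48% were called higher and 5.97% lower. Limma's unadjusted p under 0.05 gave 10, 4, 10 and 4 higher and 3, 1, 2 and 0 lower genes in the 4 lists, and 21.1% of all genes higher and 24.6% lower. The medians of the lists were 0.21, 0.51, 0.33 and 0.26, against -0.00 for all genes.

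Serpinh1, the chaperone that binds the collagen helix in the endoplasmic reticulum, had 221.6, 302.2 and 349.8 CPM in Ccl21a-high cells and 29.1, 44.7 and 101.1 in Aire-high cells, a difference of 2.33 ± 0.22 (log2, SE; adjusted p = 8.15e-09). Lox, which cross-links collagen outside the cell, differed by 1.82 (adjusted p = 4.00e-09) and Plod2, which hydroxylates its lysines, by 1.66 (adjusted p = 1.15e-06). Sparc, which binds Col4 in basement membranes, had 173.5, 224.3 and 335.3 CPM in Ccl21a-high cells against 6.21, 29.1 and 97.5 in Aire-high cells, a 6.11-fold difference (adjusted p = 9.84e-07). The Serpinh1 and Sparc ranges did not overlap between Ccl21a-high and Aire-high cells. In cTEC-gate cells the medians were 256.4 CPM of Serpinh1 and 336.1 of Sparc, in ranges that overlapped those of Ccl21a-high cells. Medians of Lox and Plod2 were 11.85 and 27.28 there, against 27.49 and 40.75 in Ccl21a-high cells.

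The laminin chains Lama3 (adjusted p = 1.62e-08) and Lamb3 (1.69, adjusted p = 2.37e-06) were higher in Ccl21a-high cells as well. Ddr1, a receptor that binds collagen, had 62.2, 79.5 and 111.1 CPM in Ccl21a-high and 9.32, 13.2 and 32.5 in Aire-high cells (1.88, adjusted p = 2.29e-08), and Itgb1, the common chain of collagen-binding integrins, differed by 1.03 (adjusted p = 1.15e-07). Of turnover genes, the proteases Mmp9 (1.59, adjusted p = 6.47e-06) and Mmp2 (1.56, adjusted p = 2.75e-07) were higher, as was the inhibitor Timp2 (1.25). In cTEC-gate cells the medians of Ddr1, Mmp2 and Timp2 were 109.9, 45.5 and 99.6 CPM, against 79.5, 26.3 and 83.2 in Ccl21a-high cells. Those of Itgb1, Lama3, Lamb3 and Mmp9 were 93.35, 28.9, 67.8 and 29.7, against 97.4, 43.4, 73.6 and 72.0.

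In cTEC-gate against Ccl21a-high cells the lists gave 1 enzyme higher and 2 turnover genes lower and no other call. Over all genes 1.24% were called higher and 1.38% lower. Limma's unadjusted p under 0.05 gave 3, 1, 5 and 1 higher and 4, 0, 1 and 4 lower among enzymes, receptors, basement membrane partners and turnover genes, and 12.9% of all genes higher and 7.54% lower. Against Aire-high cells, cTEC-gate cells had 5 enzymes, 2 receptors, 8 basement membrane partners and 2 turnover genes higher and 1 turnover gene lower (5.23% and 5.15% of all genes). Unadjusted, 11, 5, 10 and 3 were higher and 5, 0, 2 and 2 lower (24.9% and 22.4% of all genes). Tuft-gate cells had 1 enzyme and 1 receptor higher, and 2 enzymes, 1 receptor, 2 basement membrane partners and 3 turnover genes lower (4.15% of all genes higher and 2.05% lower). Unadjusted, 3, 2, 0 and 0 were higher and 15, 3, 12 and 6 lower (21.9% and 20.4% of all genes).

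Collagen genes differed in how their UMIs were spread over cells. The richest cells that together held 50% of a gene's UMIs numbered 832 for Col4a1, 610 for Col6a1, 598 for Col12a1, 495 for Col6a2 and 233 for Col14a1. For some fibrillar and cartilage chains they were far fewer, although they numbered 360 for Col27a1, 221 for Col5a1, 196 for Col5a2 and 136 for Col9a2. 50% of the UMIs of Col3a1 lay in 28 cells, of Col1a1 in 18, of Col2a1 (cartilage) in 17, of Col1a2 in 14 and of Col10a1 (hypertrophic cartilage) in 3. Col10a1 had 198 UMIs in 35 cells, with 82.8% in the richest 10 and 21.2% in the richest cell. Its 0, 0 and 62.4 CPM in cTEC-gate cells came down to 1 cell with 42 UMIs.

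**Figure D3:**
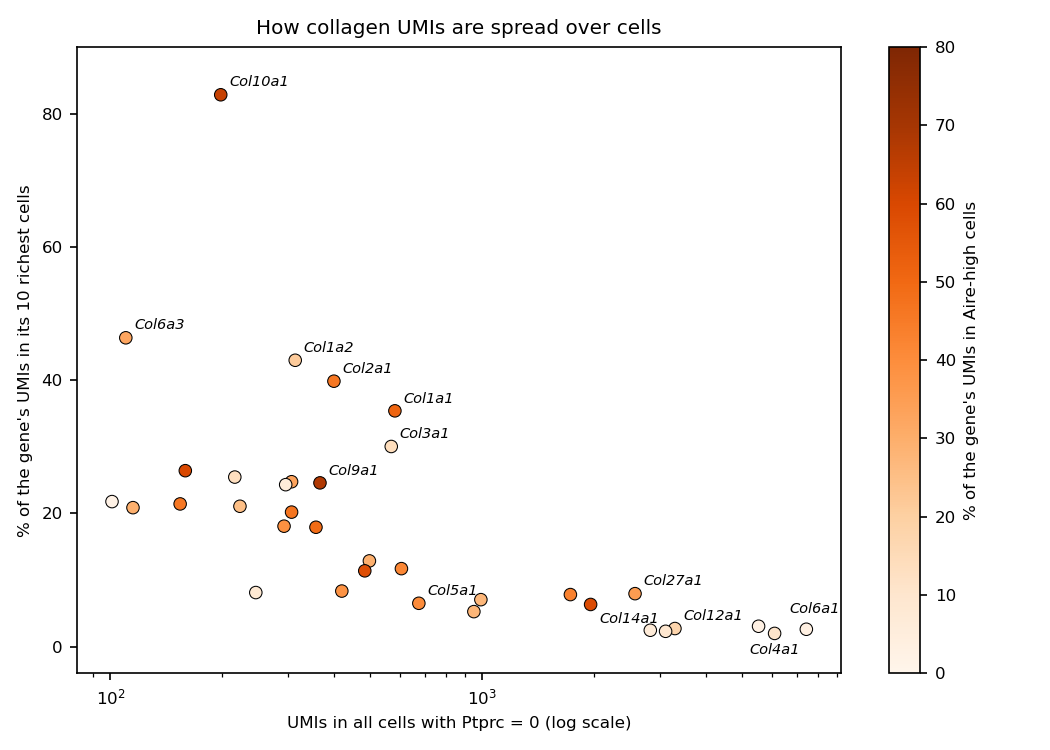
Percent of a gene's UMIs held by its 10 richest cells (y axis) for the 35 collagen genes with at least 100 UMIs, plotted against its UMIs in all cells with no Ptprc UMI (x axis, log scale), with colour for the percent of its UMIs in Aire-high cells. The 10 richest cells hold 2.62% of Col6a1 and 2.00% of Col4a1 but 82.8% of Col10a1.

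Aire-high cells held 27.2% of all UMIs over the 7 libraries (2.12% to 45.9% by library), and a larger share than that of 29 of the 44 collagen genes. They held the largest share of any class of cells for 22, among them Col9a1 (68.0% of its UMIs), Col10a1 (63.6%), Col20a1 (59.7%), Col14a1 (58.9%) and Col6a5 (58.0%). These shares are pooled over libraries, and no test was made of them. The same counts were not made over all genes, so they do not set collagens apart from other genes. Aire-high cells had the highest median UMIs per cell of the 4 gates in 7 of 7 libraries, which these shares do not take into account. Thinned to 2000 UMIs, Col14a1 was seen in a median of 8.17% of Aire-high cells, 1.25% of Ccl21a-high cells and 1.45% of cells with Ptprc above 0. Col27a1 was seen in 7.25% of Aire-high cells and 6.01% of Ccl21a-high cells, against 2.90% of cells with Ptprc above 0. By contrast, Col6a1 was seen in 31.8% of Ccl21a-high cells, 9.30% of cTEC-gate cells, 2.47% of tuft-gate cells and 1.89% of Aire-high cells, against 9.09% of cells with Ptprc above 0, most of which also held epithelial UMIs. In the other 3 gates the share of cells with Col6a1 was thus near or below that level, while it was 17.1% in cells that passed more than 1 gate.

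The fibrillar chains Col1a1, Col1a2 and Col3a1, which fibroblasts make together, fell into separate patterns in the cells that held at least 10 UMIs of them. Of 30 such cells, 21 held 1 of the chains and 9 held all 3, and 0 held 2. The 21 cells with 1 chain (16 with Col1a1, 2 with Col1a2 and 3 with Col3a1) held 10 to 34 UMIs of it. 13 of them were Aire-high and 8 passed no gate, and 20 held Aire UMIs. Their Dcn was 0 or 1 UMI, and 21 of 21 held Krt8.

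The 9 cells with all 3 chains held 14 to 82 UMIs of them and 88 to 264 UMIs of Dcn, and none was in a gate. 7 were in the anti-RANKL week 2 library, 1 in anti-RANKL week 4 and 1 in isotype week 2. An Aire UMI was present in 1 of them, Epcam in 8 and Krt8 in 9 (2 to 32 UMIs), and Pdgfra in 2. The cells with 1 chain held 46.2% of all Col1a1 UMIs but 13.4% of Col1a2 and 7.73% of Col3a1, whereas the 9 cells held 9.79%, 27.7% and 23.9%. Doublets were not called, and whether these cells are single was not tested.

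**Figure D4:**
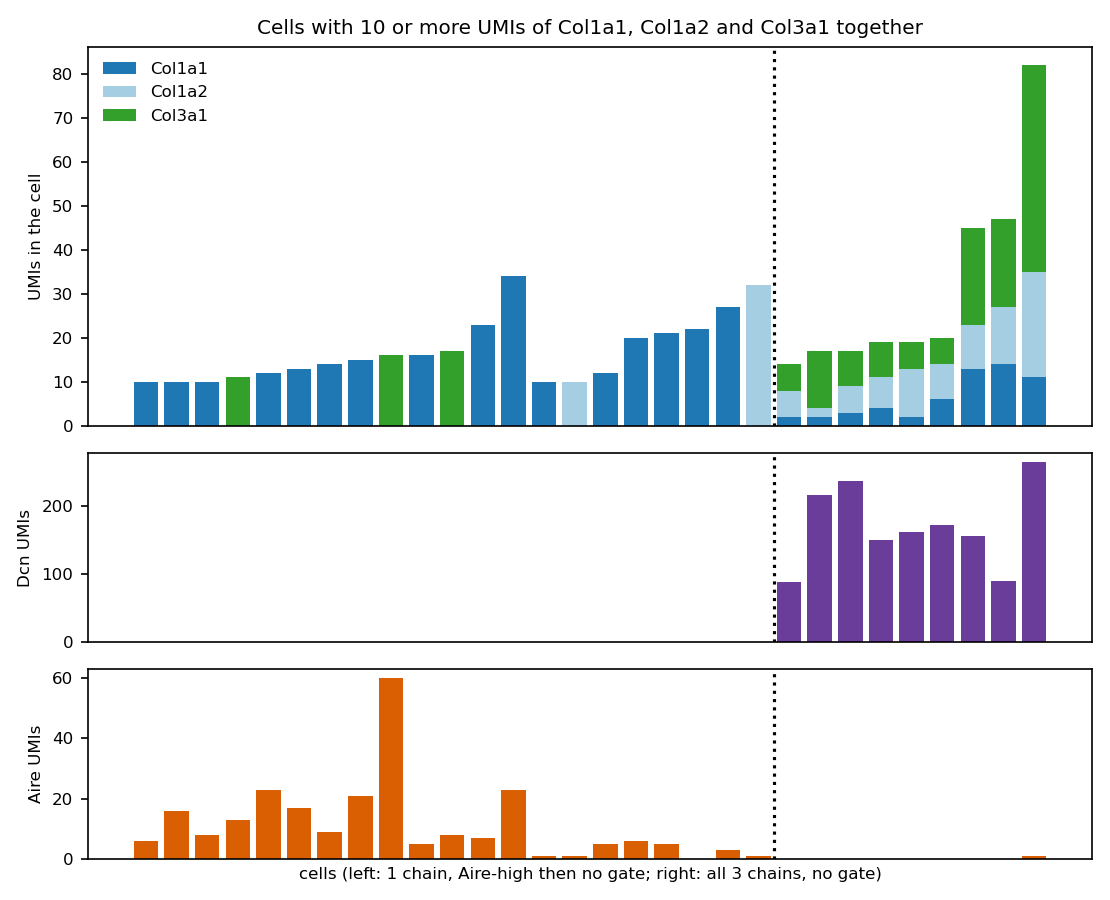
UMIs of Col1a1, Col1a2 and Col3a1 in each of the 30 cells with at least 10 of them together, with the 21 cells that held 1 chain on the left and the 9 that held all 3 on the right, and the UMIs of Dcn and of Aire in the same cells in the lower panels. Dcn is 88 to 264 UMIs on the right and 0 or 1 on the left, where 20 cells hold Aire.

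Of the 8 cells with at least 10 UMIs of Col2a1, the main chain of cartilage, 6 were Aire-high and 8 held an Aire UMI. Of 5 such cells for Col10a1, 3 were Aire-high and 5 held Aire. Of 9 for Col14a1, 6 were Aire-high, 3 passed more than 1 gate and 9 held Aire. Whether Aire is seen depends on a cell's depth. Its share in other cells of like depth was not computed, here or for the fibrillar chains above.

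Along the anti-RANKL time course each time point is 1 library, so no test was made. A gene was counted when it was at least 2-fold above both isotype libraries or at least 2-fold below both, among genes with at least 20 CPM in a library compared. In Ccl21a-high cells 0 of 8 collagen genes were counted at week 2 (background 0.841% of all genes higher and 1.46% lower), 0 of 8 at week 4 (2.21% and 2.68%), 0 of 8 at week 6 (3.54% and 3.22%) and 1 of 9 at week 10 (1.65% and 1.11%). That gene was Col3a1, higher at week 10 with 36.1 CPM against 3.69 and 5.43 in the isotype libraries and 11.5 in the Aire trace. It rested on 51 UMIs in 23 cells. Over the 4 weeks together, 1 of 33 such values was counted, against 4.18% over all genes in either direction. At 1.5-fold 4 of 33 were counted (11.7% over all genes), among genes with at least 50 CPM 0 of 24 (3.86%), in thinned cells 3 of 34 (6.72%) and with Ccl21a above 5 2 of 33 (3.57%). Without the cells that held a UMI of another lineage 16 of 53 were counted, 13 of them lower (10.3%). That left 16 and 23 Ccl21a-high cells in the isotype libraries of weeks 2 and 10, instead of 140 and 171, where 1 UMI is 5.84 and 7.30 CPM, so the limit of 20 CPM was reached with 3 or 4 UMIs.

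All collagens together gave 813.6 and 772.3 CPM in the Ccl21a-high cells of isotype weeks 2 and 10. The anti-RANKL libraries had 714.5, 764.1, 778.7 and 1067 at weeks 2, 4, 6 and 10, and the Aire trace library had 1069. Week 10 and the Aire trace were thus the high libraries, and the earlier anti-RANKL libraries lay within or below the isotype range.

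In all cells without Ptprc the picture was different, with 4 of 9 collagen genes counted at week 2, 6 of 9 at week 4, 5 of 9 at week 6 and 0 of 9 at week 10. Higher were Col4a2, Col6a1 and Col6a2 at week 2 (background 5.89%), those and Col4a1 and Col18a1 at week 4 (8.97%), and Col4a2, Col6a1, Col6a2 and Col18a1 at week 6 (6.60%). Lower was Col14a1 at weeks 2, 4 and 6 (7.89%, 13.0% and 9.71%). At week 10, 0.258% of all genes were higher and 0.145% lower. Over the 4 weeks together 15 of 36 values were counted (13.4% over all genes), and 24 of 36 at 1.5-fold (24.8%). In Aire-high cells 0 of 8, 7 of 11, 3 of 10 and 0 of 6 were higher at weeks 2, 4, 6 and 10. There 1, 1, 1 and 0 were lower. Of all genes, 286 of 6263, 813 of 6547, 410 of 6338 and 17 of 5907 were higher, and 248, 318, 441 and 36 lower. These sums held 45, 18, 72 and 416 cells. In cells that passed no gate 3 of 9, 4 of 8, 3 of 7 and 1 of 8 collagen genes were higher at these weeks. There 1, 0, 1 and 0 were lower. Of all genes, 373 of 6999, 761 of 7092, 540 of 6972 and 60 of 6520 were higher, and 383, 1009, 867 and 28 lower. All these calls share the same 2 isotype libraries.

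Col6a1 had 31.0 and 37.4 CPM in the isotype libraries and 105.7, 124, 86 and 56.6 at weeks 2, 4, 6 and 10 in all cells without Ptprc. Col4a1 had 40.2 and 53.2 in the isotype libraries and 91.5, 120.5, 98.3 and 42.9 in the anti-RANKL libraries. Col18a1 had 14.9 and 24.6 against 37.4, 69.1, 67.2 and 24.9. Among the anti-RANKL libraries all of them peaked at week 4 and were closer to the isotype values at week 10. The Aire trace library, which got no antibody, had 196.3, 101.1 and 41.2 CPM of Col6a1, Col4a1 and Col18a1.

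Col14a1 moved the other way, with 37.5 and 25.6 CPM in the isotype libraries and 7.38, 3.50, 9.91 and 34.7 at weeks 2, 4, 6 and 10. In the Aire trace library it was at 17.6. The mix of cells moved with these levels. Ccl21a-high cells held 10.1% and 11.4% of the UMIs in the isotype libraries and 40.1%, 54.8%, 32.7% and 12.8% at weeks 2, 4, 6 and 10, while Aire-high cells held 43.4% and 45.9% and then 5.50%, 2.12%, 14.8% and 43.0%. In the Aire trace library, which got no antibody, Ccl21a-high cells held 49.4% and Aire-high cells 12.5%. In such sums, more cells of a type and more RNA per cell cannot be told apart.

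With each class of cells held at its mean share of UMIs in the isotype libraries, a calculation chosen after the data were seen, Col6a1 was 1.40, 1.67, 1.495 and 1.38 times the higher isotype value at weeks 2, 4, 6 and 10, where it had been 2.82, 3.31, 2.297 and 1.51 times. Col18a1 was 0.910, 2.19, 2.249 and 0.978 times, where it had been 1.52, 2.81, 2.73 and 1.01 times. Col14a1 was 0.736, 0.271, 0.621 and 1.39 times the lower isotype value, where it had been 0.288, 0.137, 0.387 and 1.36 times. At isotype shares, Col18a1 at weeks 4 and 6 (above) and Col14a1 at week 4 (below) thus lay 2-fold or more from both isotype libraries, as did Col5a2 at week 2, at 0.259 and 0.414 times the higher and lower isotype values, where it had been 0.424 and 0.703 times. None of Col4a1, Col4a2, Col6a1, Col6a2 and Col12a1 did so at any week. Aire-high cells weigh most at isotype shares. Of them, Col14a1 at week 4 used 6.34 CPM (18 cells) and Col5a2 at week 2 used 1.24 CPM (45 cells), each from a single UMI.

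**Figure D5:**
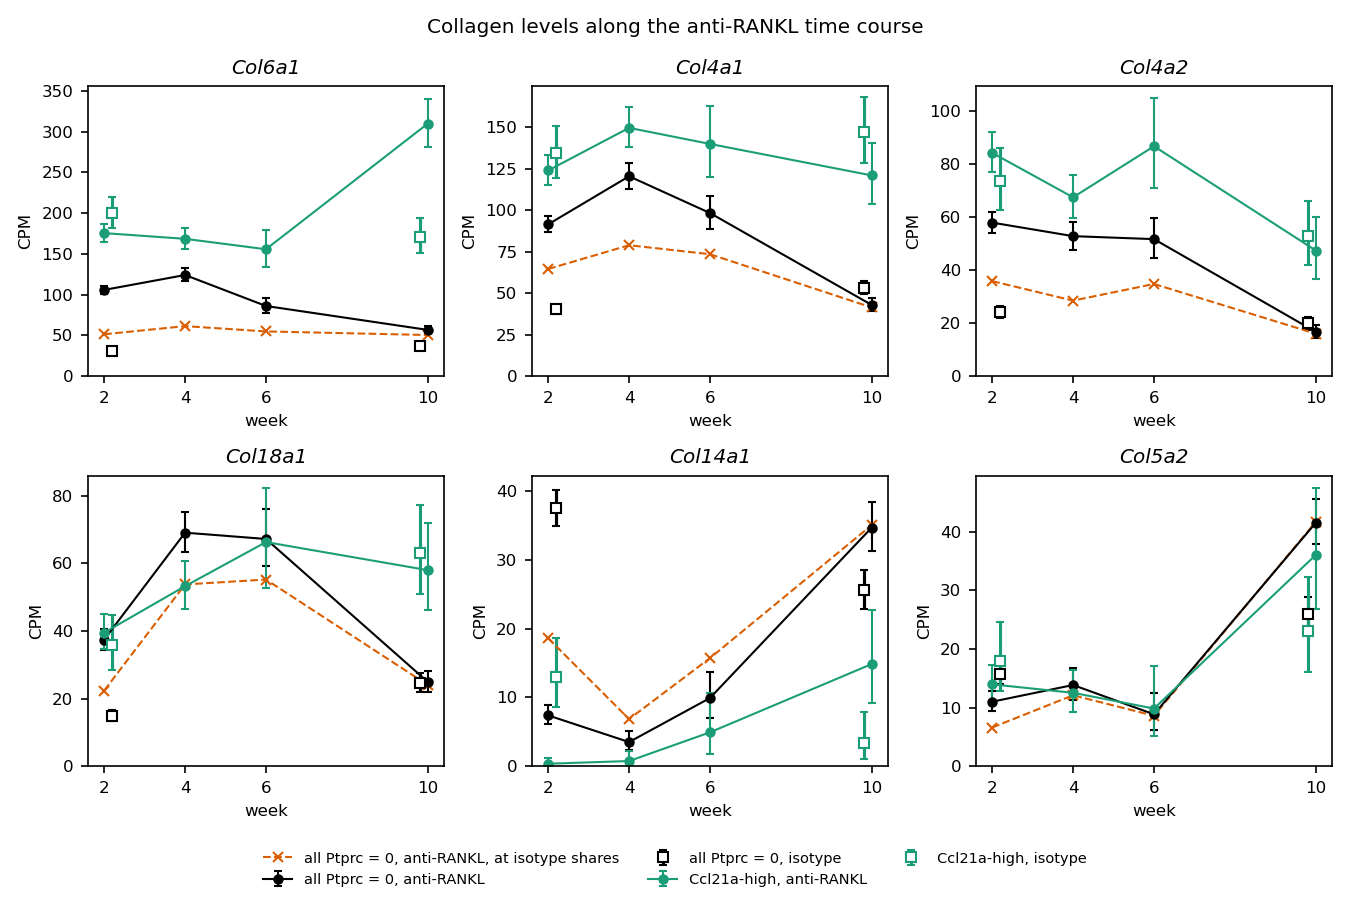
Level (CPM) of Col6a1, Col4a1, Col4a2, Col18a1, Col14a1 and Col5a2 against weeks after antibody, with squares for the isotype libraries (set slightly beside weeks 2 and 10), circles for the anti-RANKL libraries, black for all cells without Ptprc, green for Ccl21a-high cells, bars for 95% counting intervals and a dashed line for all cells at isotype shares. At week 4 in all cells Col6a1 stands at 124 and Col14a1 at 3.50, and the dashed line of Col6a1 lies closer to the isotype squares.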

How the data were processed

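The authors sequenced 10x libraries and aligned them with Cell Ranger 2.2.0 to mm10, with the ZsGreen sequence added for the Aire trace library only. They normalised them with Seurat 2.3.4, keeping cells with 200 to 7500 genes and at most 10% mitochondrial UMIs. Genes in at least 3 cells were kept. Values as deposited are a natural log, ln(1 + UMIs per 10000) (the methods name a factor of 1000), from which whole UMIs were recovered (tolerance 0.001). Cells were gated on these values, and cells in more than 1 gate were kept apart. No doublet caller was run. UMIs were summed per library and gate (at least 10 cells) and tested with limma 3.58.1 (R 4.3.3) on log2(CPM + 10), with library as block, for genes with at least 50 UMIs in the sums, leaving out the gate genes and Ptprc. Shares of cells used cells thinned to 2000 UMIs (177 shallower cells left out). Intervals are exact Poisson intervals at 95% and cover counting error only. The collagen rule, the gates and the gene lists were chosen with earlier results of these data known. Values were described for collagen genes with at least 100 UMIs, and for the 3 called genes of each list with the largest difference between Ccl21a-high and Aire-high cells. The alternatives were other pseudocounts, gates, filters, depths and libraries. Sequences and positions come from GRCm38.p6 and GENCODE vM21. The script for the test was tested on simulated data. Scripts ran in Python 3.11.15 with pandas 2.3.3, matplotlib 3.10.9, numpy 2.4.6 and scipy 1.17.1.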

Additional observations from a re-analysis of the deposited data

How the results depend on the processing

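Of 592 values of the 22 called differences under alternative settings, 516 kept their call, 76 kept their direction without passing, and 0 turned direction. Of the 154 values that left out a library, 12 lost the call, all named above. Counts of collagen genes that moved by more than 1.5 times are given here, higher before lower, against 5 and 2 in Ccl21a-high against Aire-high cells, 0 and 3 in cTEC-gate against Ccl21a-high cells, 3 and 2 in cTEC-gate against Aire-high cells and 1 and 6 in tuft-gate cells. With a pseudocount of 1 there were 5 lower in the first comparison, 1 higher in the second, 6 and 6 in the third and 3 and 17 in tuft-gate cells. With a pseudocount of 50 there were 3 and 0 in the first, 1 and 0 in the third and 0 and 0 in tuft-gate cells, and 2 lower instead of 3 in the second. With means of the deposited natural log values, called by adjusted p alone, there were 9 lower, 3 and 7, 6 and 11, and 3 and 17. With cells in more than 1 gate kept, the lower counts were 1 in the first, 0 in the third and 0 in tuft-gate cells. In the first comparison the lower count was 1 with at least 30 cells per sum, with Ccl21a above 5 and Aire above 2, with Ccl21a above 3 and Aire above 1, with all 3 cTEC markers, in thinned cells, in the Aire trace and isotype libraries, and without cells with 2 or more mesenchyme markers. With all 3 cTEC markers there were 2 higher in the second and 4 lower in the third. In the third comparison, the higher count was 1 without cells with another lineage's UMIs, 1 with all cells in the sums that this keeps, 5 in the Aire trace and isotype libraries, 1 in the anti-RANKL libraries and 1 after centring each sum on its median gene, and the lower count was 0 with Ccl21a above 5 and Aire above 2. The lower count in tuft-gate cells was 4 with those cuts and with all 3 cTEC markers.

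Leaving out 1 library gave 1 to 2 lower in the first comparison, 1 to 3 higher and 1 to 3 lower in the third, and 5 to 6 lower in tuft-gate cells, and 43 to 55 paired comparisons at p under 0.05 instead of 64. Without cells with another lineage's UMIs that number was 0, since fewer libraries then held 10 cells of each gate. In the time course of Ccl21a-high cells, 1 gene became 4 at 1.5-fold, 0 at 50 CPM, 3 in thinned cells, 2 with Ccl21a above 5 and 16 without cells with another lineage's UMIs. In all cells, 15 became 24 at 1.5-fold. Col6a1 was seen in 65.5% of unthinned Ccl21a-high cells and 47.0% of those thinned to 4000 UMIs, against 31.8%, and Col4a1 in 62.0% and 39.5%, against 24.2%. With Ccl21a above 5 the ZsGreen-positive sum was 1090 and the negative one 1063, which turned their order. Of all genes called, the share higher fell on centring from 47.3% to 36.4% (cTEC-gate against Ccl21a-high), from 50.4% to 40.3% (cTEC-gate against Aire-high) and from 66.9% to 53.0% (tuft-gate; 44.7% with a pseudocount of 1), centring moving the scale by 0.11 and 0.13 in the last 2. Centring, the mesenchyme filter and the fit of all cells in the sums kept were chosen after the data were seen. By replicate number no paired analysis was possible because each treatment and week is 1 library, and a pairing of isotype with anti-RANKL libraries by week, at weeks 2 and 10, was not run. Between gates the library was a block throughout.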

Other observations

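Within the Ccl21a-high cells of the Aire trace library, 261 cells with a UMI of the ZsGreen reporter (the row named GFP) and 496 without one had collagen sums of 1045 CPM (exact Poisson interval 1008 to 1082) and 1085 (1054 to 1117). They are cells of 1 library, so no test was made. The groups differed in depth, with a median of 9269 UMIs in the cells with the reporter and 8010 in those without. Thinned to 2000 UMIs, the reporter was seen in 10.2% of Ccl21a-high cells and 11.5% of cTEC-gate cells (median depths of 8322 and 8969 UMIs), against 57.5% of Aire-high cells. The other 6 libraries do not carry the reporter. The paper added its sequence to the reference only for the lineage tracing experiment, so 0 UMIs in the others was fixed in advance. The cTEC gate admits cells with some Aire, and whether its share is a background level was not tested. The order turned with Ccl21a above 5, where the sums were 1090 (1049 to 1132) in ZsGreen-positive and 1063 (1030 to 1096) in ZsGreen-negative cells, and Col6a1 was at 342.3 and 333.9. With Ccl21a above 4, Col6a1 was at 315.6 (295.6 to 336.6) in ZsGreen-positive and 339.9 (322.7 to 357.9) in ZsGreen-negative cells, and Col6a2 at 257.7 and 262.

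Of the 233 cells with a Ptprc UMI, 224 also held a UMI of Epcam, Krt8 or Krt18. Collagens of the 233 cells summed to 263.5, 424 and 536.6 CPM (lowest, median and highest library), with a median between those of tuft-gate and Ccl21a-high cells, and Col4a1 was at 22.4, 47.6 and 106. The 9 cells with none of these epithelial UMIs had collagen sums of 0 to 96.0 CPM.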
